A study of Homo sapiens with 26 samples.

Results

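The genes described here are 9 imprinted genes with roles in growth: H19, IGF2, IGF2R, CDKN1C, PEG10, MEST, PEG3, PHLDA2 and MEG3. They are 9 of the 62778 gene identifiers in the 3 count tables of the study, each found by its symbol. They were chosen by a measurement in these data, the fall of H19 in BxPC3 cells that express the HNF4A isoform P1-a2, so the values of the 9 genes in BxPC3 are given as a description, with no test. The other members were named with H19 for being imprinted, and their values in Panc10.05 and ASPC1 were tested.

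The study measured poly(A) RNA in 3 established human lines of pancreatic ductal adenocarcinoma, Panc10.05, BxPC3 and ASPC1, after HNF4A was induced or repressed. HNF4A encodes a nuclear receptor whose isoforms start at a promoter called P1 or at another called P2. Panc10.05 and BxPC3 received doxycycline, which switches on a construct, and expressed P1-a2, P2-a8 or a negative control, NC, which the titles give as GFP in Panc10.05 and as EV in BxPC3. Each of these groups had 2 libraries. Every BxPC3 group, NC included, received 500 ng/mL. P1-a2 and NC of Panc10.05 received 25 ng/mL, and P2-a8 received 12.5 ng/mL, so dose and isoform cannot be told apart in that line. In ASPC1, CRISPR interference used a guide RNA to block transcription at a promoter. Guides sgP1E and sgP1J were directed at P1, sgP2D and sgP2G at P2, sgDual2 and sgDual3 at both isoforms, and sgNC was the control. Each guide had 2 libraries, which gives 4 for each target and 2 for sgNC. Tests of a target take its 4 libraries as separate replicates, although the 2 libraries of a guide share that guide. The labels do not say whether replicate libraries came from separate cultures, so p-values measure the spread between these libraries, which may be technical. They do not say either whether a line was 1 clone.

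Imprinted genes are transcribed mainly from the copy inherited from 1 parent, under methylation marks set in the germ line. H19, a long noncoding RNA, and IGF2, a fetal growth factor, lie side by side and are controlled by a shared imprinting centre, with H19 read from the maternal and IGF2 from the paternal copy. IGF2R is the receptor that takes up IGF2 for breakdown, and it is imprinted in mouse while most people express both copies. CDKN1C, an inhibitor of cyclin-dependent kinases, and PHLDA2, a brake on placental growth, are maternally expressed genes of the same chromosome arm as H19. MEST, a predicted hydrolase, PEG10, a gene derived from a retrotransposon, and PEG3, a zinc finger protein, are paternally expressed, and MEG3 is a maternally expressed long noncoding RNA. H19 and IGF2 are abundant in fetal tissues and in some tumours.

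On GRCh38 with GENCODE v29, H19 (ENSG00000130600) lies on chromosome 11 from 1995176 to 2001470 on the minus strand, and IGF2 (ENSG00000167244) from 2129112 to 2149603 on the same strand. CDKN1C (ENSG00000129757) lies on chromosome 11 from 2883213 to 2885773 and PHLDA2 (ENSG00000181649) from 2928273 to 2929455. IGF2R (ENSG00000197081) lies on chromosome 6 from 159969099 to 160113507. PEG10 (ENSG00000242265) and MEST (ENSG00000106484) lie on chromosome 7, from 94656325 to 94669695 and from 130486171 to 130506465. Promoters of 4 of the 9 genes were in the RefSeq table used (GRCh38.p14). The 250 bases before the RefSeq start of H19, of MEST (1 of its 5 listed starts) and of IGF2R are shown, since these genes carry the differences described below. By the GENCODE coordinates above, the H19 window lies mostly inside H19 and the MEST window wholly inside MEST. Capitals mark CAAAG, the core letters of the HNF4 motif, searched on both strands, where CTTTG is the same motif on the other strand.
H19 (chr11:2001267-2001516, minus strand): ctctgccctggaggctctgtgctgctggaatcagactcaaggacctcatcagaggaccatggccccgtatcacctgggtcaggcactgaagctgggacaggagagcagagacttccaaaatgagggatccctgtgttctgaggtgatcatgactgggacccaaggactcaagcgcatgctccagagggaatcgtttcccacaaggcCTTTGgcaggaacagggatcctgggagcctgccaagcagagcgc
MEST (chr7:130491835-130492084, plus strand): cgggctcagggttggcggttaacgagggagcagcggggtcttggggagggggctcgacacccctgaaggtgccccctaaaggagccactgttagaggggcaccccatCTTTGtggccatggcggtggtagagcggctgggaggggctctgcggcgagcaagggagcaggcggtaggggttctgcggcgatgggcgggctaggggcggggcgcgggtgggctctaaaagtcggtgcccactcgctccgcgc
IGF2R (chr6:159968832-159969081, plus strand): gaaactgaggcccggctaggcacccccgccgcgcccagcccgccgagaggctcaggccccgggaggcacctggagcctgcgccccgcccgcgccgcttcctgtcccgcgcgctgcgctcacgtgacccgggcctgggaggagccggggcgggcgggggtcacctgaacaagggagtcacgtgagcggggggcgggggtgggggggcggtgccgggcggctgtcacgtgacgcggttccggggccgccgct
The H19 and MEST windows each hold 1 match and the IGF2R window holds 0. Of 35116 promoter windows of the same length, 42.1% hold at least 1 match, so a match is common. The H19 window has 4 CpG sites and 58.0% G and C, beside medians of 11 sites and 58.0% over all windows. The MEST window has 20 CpG sites and 69.6% G and C, and the IGF2R window has 33 and 79.2%.

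The smallest and largest library had 34618745 and 46827673 counts for Panc10.05, 26369154 and 37483772 for BxPC3, and 26079388 and 50662077 for ASPC1. Levels are in CPM, the count of a gene per 1000000 counts of its library, scaled for library composition. HNF4A, the targeted gene, followed the labels in direction. In Panc10.05 it was at 0.149 ± 0.129 CPM (SD, n = 2) in NC, 11.8 ± 1.61 in P1-a2 (n = 2) and 37.6 in each of the 2 P2-a8 libraries. In BxPC3 it was at 0.771 ± 0.434, 10.7 ± 1.32 and 13.4 ± 1.15 CPM in NC, P1-a2 and P2-a8 (n = 2 each). In ASPC1 it was at 213 ± 9.95 CPM in sgNC (n = 2), 129 ± 18.4 in sgP1, 86.5 ± 7.74 in sgP2 and 7.99 ± 4.84 in sgDual (n = 4 each). The fall in sgDual passed edgeR's test (log2 fold change -4.73, SE 0.39, adjusted p 6.25e-06), while those in sgP1 (-0.72, SE 0.36, adjusted p 0.615) and sgP2 (-1.30, SE 0.36, adjusted p 0.0751) did not, although no library of either overlapped sgNC. All 7 epithelial markers were above the floor in every line. Their summed level moved with the groups. In Panc10.05 it was 5863.7 to 5929.3 CPM in NC, 7630.8 to 8710.7 in P1-a2 and 9666.8 to 10150.7 in P2-a8, where 7 of 7 were higher than in NC. In P1-a2 of Panc10.05 the markers split, with 3 higher and 3 lower than in NC (median log2 0.11), which the sum does not show. In BxPC3 the sum was 7757.3 to 8010.6 CPM in NC, 10295.9 to 11006.8 in P1-a2 (4 markers higher and 1 lower than in NC) and 8997.4 to 9173.4 in P2-a8 (5 higher, 1 lower). In ASPC1 it ran from 8303.0 to 18051.7. The part of these markers in the results for these lines was not tested.

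PHLDA2 was the highest of the 9 per kilobase of exon in each line, with line means of 106, 64.9 and 61.4 CPM per kb in Panc10.05, BxPC3 and ASPC1. IGF2R had line means of 12.6, 25.4 and 17.7 CPM per kb and MEST of 12.4, 20.6 and 5.32, in the same order of lines. PEG10 had a level of 49.1 CPM per kb in BxPC3 and 30.6 in ASPC1, and of only 0.091 in Panc10.05. H19 was at 9.34 CPM per kb in BxPC3, 0.73 in ASPC1 and 0.0343 in Panc10.05, and CDKN1C was at 4.63 in Panc10.05, 0.634 in BxPC3 and 0.479 in ASPC1. Over libraries, the ranges of IGF2R and MEST overlapped in Panc10.05 and in BxPC3, those of PHLDA2 and PEG10 in BxPC3 and in ASPC1, those of H19 and CDKN1C in ASPC1, and those of PEG10, H19 and IGF2 in Panc10.05. The lines were normalized separately and differences between lines were not tested.

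PEG3 and MEG3 had 0 counts in nearly all libraries and at most 1 in any. A floor of 3 counts corresponds to 0.0592 to 0.115 CPM over the ASPC1 libraries, so levels under that could not be seen, and this limit covers counting error only. IGF2 had 1 to 15 counts in a Panc10.05 library, 2 to 15 in BxPC3 and 0 to 6 in ASPC1. The growth factor that neighbours H19 was therefore close to the limit of detection in all 3 lines. IGF2 shares exons with INS-IGF2, which had 0 counts throughout, and with another gene on its strand. The strand setting of the counting is not given in the sources used here, so reads of MEST and COPG2, of PEG10 and SGCE, and of IGF2 and IGF2-AS, which share exon sequence on opposite strands, cannot be told apart. IGF2-AS had at most 1 count in any library.

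The share of the members past the test has to be read against that of all genes, which was large in several comparisons. In Panc10.05, 6 of the 9 members passed the filter on low counts. Of these, 5 were past an adjusted p of 0.05 in P1-a2 against NC, where 62.0% of all 17247 genes tested were, 4 in P2-a8 against NC, where 46.2% were, and 4 in P1-a2 against P2-a8, where 46.9% were. The first count includes IGF2, which had too few counts to be tested in a fit of P1-a2 and NC alone, where the count was 4. In ASPC1, 6 of 9 passed the filter and 0 of them were past the threshold in sgP1 against sgNC (0.265% of 16992 genes by the same edgeR test, 45 genes, and 1516 genes at an unadjusted p under 0.05). DESeq2 also called 0 members there. The count was 1 in sgP2 against sgNC (3.42% of genes), 2 in sgDual against sgNC (35.6%), 1 in sgP2 against sgP1 (4.30%), 2 in sgDual against sgP1 (38.3%) and 2 in sgDual against sgP2 (46.4%). The sgP1 guides differed from each other in H19, MEST and IGF2R (14.5% of all genes called), and the sgP2 guides in MEST (1.69% called), as described below.

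H19 showed its highest level in BxPC3 and its lowest in Panc10.05. In BxPC3 the NC libraries had 49.2 and 48.0 CPM, the P2-a8 libraries 28.2 and 21.7, and the P1-a2 libraries 8.56 and 6.68. The 3 groups did not overlap, with NC highest and P1-a2 lowest, as the plot of H19 in each library shows. The log2 difference from NC was -2.68 (SE 0.15) in P1-a2 and -0.96 (SE 0.13) in P2-a8, and that of P1-a2 from P2-a8 was -1.72 (SE 0.15). These are the values that chose the members and carry no test. In bulk RNA, fewer cells with H19 and less H19 per cell cannot be told apart. In Panc10.05, H19 had 1 to 6 counts in a library (0.0257 to 0.174 CPM) and did not pass the filter, so no change could be measured there.

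**Figure D1:**
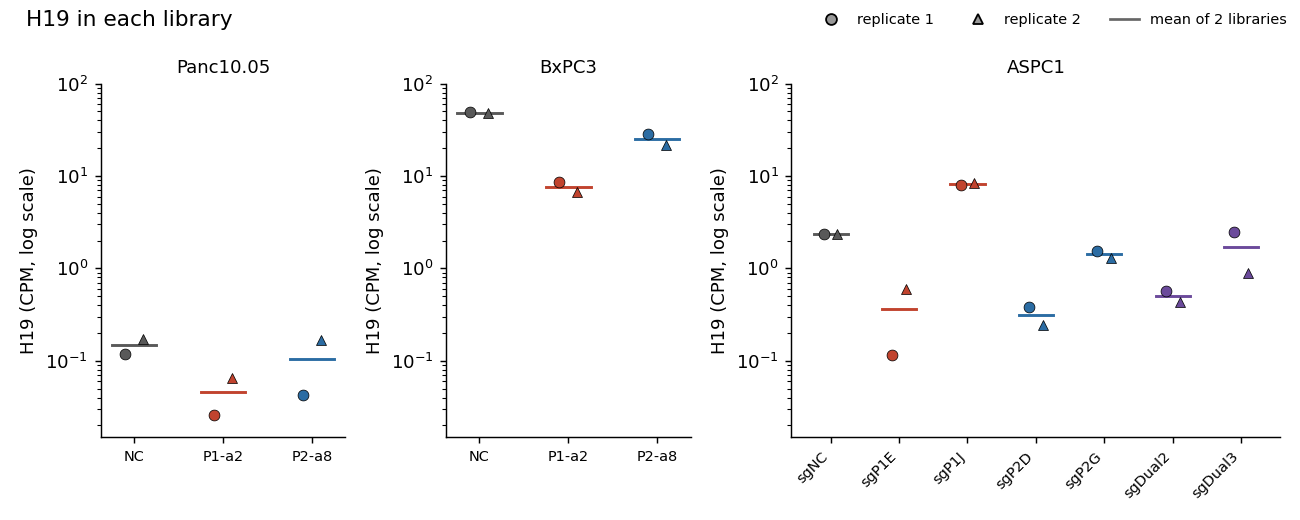
H19 in CPM (log axis) in each library of Panc10.05, BxPC3 and ASPC1, by group or guide, with circles for replicate 1, triangles for replicate 2 and a line at the mean of 2 libraries. The BxPC3 groups lie apart from 49.2 CPM down to 6.68, and in ASPC1 the sgP1J libraries lie above sgNC while the sgP1E and sgP2D libraries lie below it.

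In ASPC1, H19 differed between guides aimed at the same promoter. The sgNC libraries had 2.34 and 2.38 CPM, at 74 counts each. The sgP1E libraries had only 6 and 20 counts, beside 271 and 260 in sgP1J. The sgP1J libraries had 7.91 and 8.39 CPM and the sgP1E libraries 0.117 and 0.602, so the guides against P1 lay on opposite sides of the control with no overlap. Between these guides H19 was 4.67 higher on the log2 scale in sgP1J (SE 0.49, edgeR adjusted p 8.01e-05, n = 2 each), where 14.5% of all genes were past the threshold. Each differed from sgNC in a fit with 1 coefficient per guide, by -2.88 for sgP1E (SE 0.54, adjusted p 0.00625, where 8.62% of genes were called) and by 1.79 for sgP1J (SE 0.38, adjusted p 0.0274, 3.04% called). The sgP1E call held with every library left out in turn, and the sgP1J call was lost with any of its 4 libraries left out, at adjusted p from 0.0551 to 0.184. With its 4 libraries as 1 group, sgP1 against sgNC was not past the threshold for H19 (log2 fold change 0.83, SE 1.22, adjusted p 0.917).

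The guides against P2 and against both isoforms also spread in H19. The sgP2D libraries had 0.387 and 0.247 CPM (10 and 8 counts) and the sgP2G libraries 1.53 and 1.31. The sgDual2 libraries had 0.574 and 0.433 CPM (20 and 15 counts), and the sgDual3 libraries had 2.48 and 0.898. sgP2D was lower than sgNC (log2 fold change -2.91, SE 0.59, adjusted p 0.00953, 8.52% of genes called), and so was sgDual2 (-2.22, SE 0.52, adjusted p 0.00553, 36.9% called). The sgP2D call was lost without either of its libraries (adjusted p 0.0591 and 0.0866) and the sgDual2 call without its replicate 2 (0.0552). sgP2G (-0.73, SE 0.44, adjusted p 0.398, 8.16% called) and sgDual3 (37.2% called) were not past the threshold for H19. The differences of H19 between sgP2G and sgP2D (2.18, SE 0.63, adjusted p 0.154, 1.69% called) and between sgDual3 and sgDual2 (1.72, SE 0.53, adjusted p 0.280, 0.883% called) did not pass either, although their libraries did not overlap. HNF4A was at 145 ± 0.922 CPM in sgP1E, 114 ± 6.69 in sgP1J and 213 ± 9.95 in sgNC (n = 2 each). It was at 92.6 ± 1.74 CPM in sgP2D, 80.4 ± 5.11 in sgP2G, 6.75 ± 5.04 in sgDual2 and 9.24 ± 6.23 in sgDual3 (n = 2 each). For P1 and for P2, the guide with more H19 had less HNF4A, without overlap. For sgDual it had more, with overlap. The relation of H19 to HNF4A over guides was not tested.

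MEST moved with H19 between the guides of each target, but not always against sgNC. It was at 14.8 and 16.5 CPM in sgP1E and at 40.4 and 41.4 in sgP1J, beside 25.1 and 26.6 in sgNC. It was at 17.9 and 15.9 CPM in sgP2D and at 27.9 and 31.6 in sgP2G. The sgDual2 libraries had 22.7 and 20.4 CPM and the sgDual3 libraries 28.1 and 27.5. In each of the 3 guide pairs the guide with the higher H19 thus had the higher MEST, with no overlap between libraries. Both genes passed the test only between the guides against P1, and the share of all genes without overlap was not counted. Beside sgNC (means of 2.36 CPM for H19 and 25.9 for MEST), sgP2G had lower H19 (1.42) and higher MEST (29.7). So did sgDual3 (1.69 and 27.8), where H19 overlapped sgNC. Neither gene passed against sgNC in these guides. MEST was higher in sgP1J than in sgP1E by 1.39 on the log2 scale (SE 0.10, adjusted p 1.25e-06), as it was in sgP2G than in sgP2D (0.82, SE 0.10, adjusted p 0.000416), and the difference of sgDual3 from sgDual2 was not past the threshold (0.37, SE 0.09, adjusted p 0.129). Against sgNC it fell in sgP1E (-0.73, SE 0.10, adjusted p 0.000371) and in sgP2D (-0.61, SE 0.10, adjusted p 0.00166) and rose in sgP1J (0.66, SE 0.09, adjusted p 0.00139), and these calls held with each library left out. The small fall in sgDual2 (-0.26, SE 0.10, adjusted p 0.0455) was lost with any of its 4 libraries left out, at adjusted p from 0.0565 to 0.286.

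**Figure D2:**
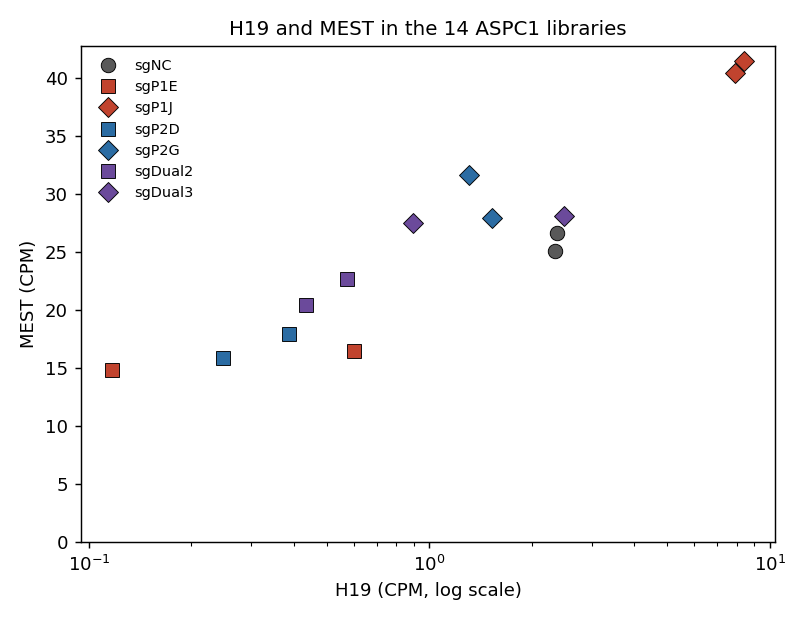
MEST (CPM) against H19 (CPM, log axis) in the 14 ASPC1 libraries, with 1 symbol per library, colours for the target and shapes for the guide. The sgP1J libraries lie at the top right, at 40.4 and 41.4 CPM of MEST, and the sgP1E, sgP2D and sgDual2 libraries at the lower left.

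Of 10550 genes with a mean of at least 5 CPM in ASPC1, MEST had the highest correlation with H19 over the 14 libraries (Pearson r 0.9253 of log2 CPM). ANKEF1 (0.9128) and CKMT1B (0.9042), a creatine kinase gene with a near-identical copy, CKMT1A, followed. ANKEF1 was at 19.2 ± 0.847 CPM in sgP1J and 11.3 ± 1.34 in sgP1E (n = 2 each). These are descriptions over 7 guides with 2 libraries each. The 2 libraries of a guide share that guide, so the 14 points are not independent. In BxPC3 the genes most like H19 over 6 libraries were EYA2 (0.9997), POU2F1 (0.9994) and NINL (0.9988), and MEST was rank 821 of 10999 there (0.9311). The epithelial markers also differed between the guides against P1: their summed level was 16245.7 to 18051.7 CPM in sgP1J, 8303.0 to 9944.4 in sgP1E and 14306.9 to 14597.0 in sgNC, and 4 of 7 were higher in sgP1J than in sgP1E. Their part in the H19 and MEST differences was not tested.

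IGF2R lay above the control of its line in P1-a2 and P2-a8 of Panc10.05 and BxPC3 and in sgDual of ASPC1, as the plot of fold changes shows. In Panc10.05 it was at 179 and 154 CPM in NC, 280 and 267 in P1-a2 and 232 and 239 in P2-a8. The 3 groups did not overlap, with NC lowest. It was higher than in NC by 0.71 on the log2 scale in P1-a2 (SE 0.06, edgeR adjusted p 5.03e-13) and by 0.50 in P2-a8 (SE 0.06, adjusted p 1.23e-08). P1-a2 was 0.21 above P2-a8 (SE 0.06, adjusted p 0.00487), a call lost without P1-a2 replicate 1 (0.072) or P2-a8 replicate 1 (0.0799). In BxPC3 IGF2R was at 328 and 324 CPM in NC, 572 and 637 in P1-a2 and 424 and 431 in P2-a8, again without overlap. The log2 differences from NC there were 0.89 (SE 0.06) and 0.39 (SE 0.06), as a description.

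In ASPC1, where HNF4A was lowered, IGF2R was also higher in the group with the least HNF4A. The 4 sgDual libraries ran from 369 to 420 CPM, with a mean of 389, and the sgNC libraries had 264 and 287. The difference was 0.50 on the log2 scale (SE 0.12, adjusted p 0.00634), and it was lost without sgNC replicate 1 (0.44, adjusted p 0.0918). IGF2R in sgDual was also above sgP1 (0.45, SE 0.10, adjusted p 0.00241) and sgP2 (0.41, SE 0.10, adjusted p 0.00325). These comparisons share the sgDual libraries and take the libraries of a guide as separate replicates. The sgP1E libraries had 303 and 339 CPM and the sgP1J libraries 264 and 230, and sgP1J was lower than sgP1E (-0.38, SE 0.09, adjusted p 0.0121), a call lost without sgP1E replicate 2 (0.122) or sgP1J replicate 2 (0.0858). The guide with more H19 and MEST thus had less IGF2R.

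IGF2 counts in Panc10.05 were 13 and 8 in NC, 13 and 15 in P2-a8, and 2 and 1 in P1-a2. P1-a2 was lower than each other group, with no overlap. Pooled over libraries, NC had 7.83 times the rate of P1-a2 (exact 95% interval 2.34 to 41.0, 21 counts against 3), and P2-a8 had 9.68 times (2.99 to 49.7, 28 against 3). These intervals cover counting error only. IGF2 passed the filter through NC and P2-a8, where it is high, and did not pass in a fit of P1-a2 and NC alone, so no fitted fold change or p is given. The genes most like IGF2 over the 6 Panc10.05 libraries were CASP10 (Pearson r 0.9972), FMN1 (0.9966) and C1QTNF6 (0.9942), a description that rests on 1 to 15 counts of IGF2. In BxPC3 they were PPHLN1 (0.9967), PPP6R3 (0.9694) and FAM86DP (0.9649), a pseudogene with close copies, on 2 to 15 counts.

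PHLDA2 rose in Panc10.05 with either isoform. It was at 78.0 and 86.9 CPM in NC, 114 and 121 in P1-a2 and 108 and 100 in P2-a8, with no overlap between groups. The rise was 0.51 on the log2 scale in P1-a2 (SE 0.07, adjusted p 6.62e-09) and 0.34 in P2-a8 (SE 0.07, adjusted p 3.67e-05). P1-a2 was 0.17 above P2-a8 (SE 0.07, adjusted p 0.0265), which was lost without replicate 2 of P1-a2 (0.257) or of P2-a8 (0.354). In BxPC3 PHLDA2 was at 43.4 and 48.4 CPM in NC, 82.7 and 93.3 in P1-a2 and 47.2 and 56.7 in P2-a8. P1-a2 lay apart from the others, at log2 differences of 0.94 (SE 0.10) from NC and 0.76 (SE 0.10) from P2-a8, while P2-a8 overlapped NC (0.18, SE 0.10).

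In ASPC1, PHLDA2 followed the replicate number as well as the guide. Replicate 1 was higher than replicate 2 for 7 of 7 guides, by a median of 0.54 on the log2 scale, and the sgNC libraries had 71.2 and 47.5 CPM. The sgDual libraries ran from 31.1 to 53.2 CPM and the sgP2 libraries from 56.8 to 92.8, without overlap. PHLDA2 was lower in sgDual than in sgP2 (-0.86, SE 0.22, adjusted p 0.0068). sgDual against sgNC (-0.51, SE 0.27, adjusted p 0.156) and sgDual against sgP1 (-0.49, SE 0.22, adjusted p 0.100) were not past the threshold in the edgeR fit, and the second passed with DESeq2 (-0.48, adjusted p 0.0461). That edgeR fit takes no account of the replicate number. With the replicate number in the fit both passed, as given below with the other settings.

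**Figure D3:**
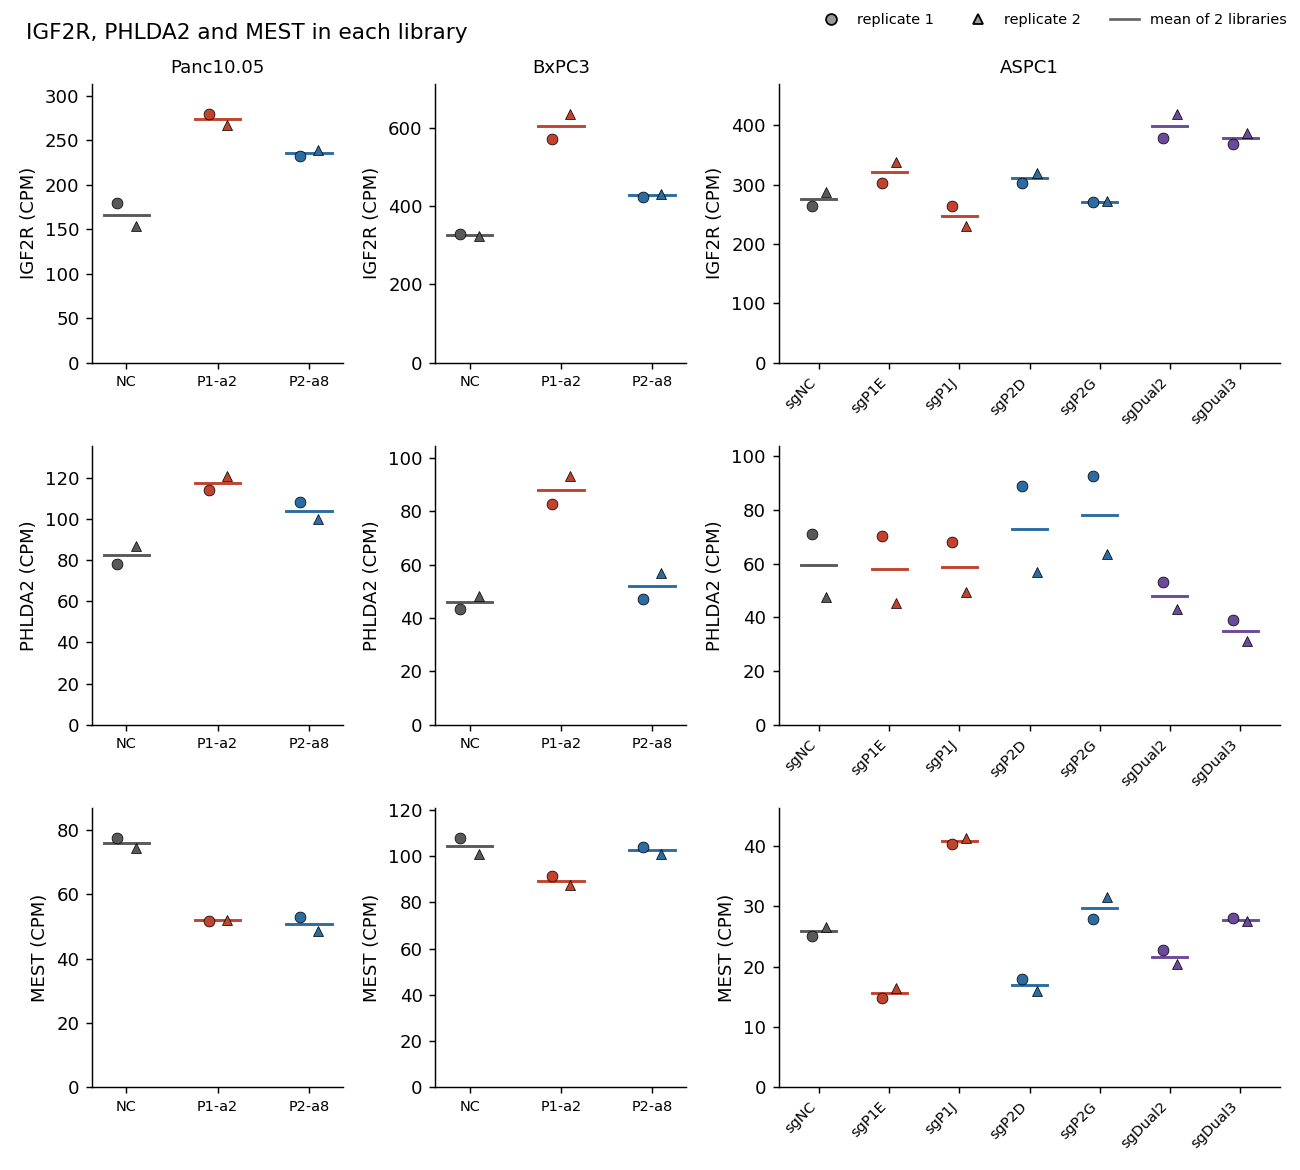
IGF2R, PHLDA2 and MEST (CPM, axes from 0) in each library of the 3 lines, with circles for replicate 1, triangles for replicate 2 and a line at the mean of 2 libraries. IGF2R and PHLDA2 lie above NC in P1-a2 of Panc10.05 and BxPC3, and PHLDA2 is higher in replicate 1 for 7 of 7 ASPC1 guides.

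CDKN1C was at its highest level in Panc10.05 and near 1 CPM elsewhere. Panc10.05 had 10.3 and 11 CPM in NC, 10.0 and 12 in P1-a2 and 12.2 and 13.3 in P2-a8. The rise in P2-a8 was small (0.26, SE 0.11, adjusted p 0.0469) and was lost with any of the 4 libraries left out (adjusted p from 0.055 to 0.222), with DESeq2 (0.139), with other size factors (0.0533) and with no filter (0.0616). In ASPC1 CDKN1C had 26 to 59 counts in a library. The sgNC libraries had 0.824 and 0.835 CPM, the 4 sgP1 libraries 0.800 to 0.873, the 4 sgP2 libraries 1.30 to 1.88 and the 4 sgDual libraries 1.23 to 1.44. The sgP2 and sgDual libraries thus lay above those of sgP1 and sgNC with no overlap.

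CDKN1C was higher in sgP2 than in sgNC (0.91, SE 0.20, adjusted p 0.0201) and in sgDual than in sgNC (0.69, SE 0.20, adjusted p 0.0128). Without sgNC replicate 1 these adjusted p were 0.194 and 0.102, and without replicate 2 they were 0.182 and 0.0677. Both were also lost with no filter on low counts (0.0706 and 0.0712), and the first with a fit of sgP2 and sgNC alone (0.0509). Against the 4 sgP1 libraries the rises were 0.91 in sgP2 (SE 0.15, adjusted p 0.00407) and 0.69 in sgDual (SE 0.15, adjusted p 0.00257), and these were not lost with any library left out. Leaving out 1 library does not remove a guide, and libraries of the same guide are not independent. By guide, sgP2G was above sgNC (1.02, SE 0.22, adjusted p 0.0133), as were sgDual2 (0.70, SE 0.23, adjusted p 0.0278) and sgDual3 (0.68, SE 0.23, adjusted p 0.0337), while sgP2D did not pass (0.79, SE 0.23, adjusted p 0.055). The sgP2G call was lost without sgNC replicate 1 (0.0891), sgNC replicate 2 (0.0787) or sgP2G replicate 2 (0.112). The sgDual2 and sgDual3 calls were lost with DESeq2 (0.128 and 0.147) and with any of their 4 libraries left out (0.0634 to 0.134 and 0.0645 to 0.168). In BxPC3 CDKN1C had 42 to 70 counts and 1.41 to 2.14 CPM.

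MEST fell in Panc10.05 with either isoform, where IGF2R and PHLDA2 rose. It was at 77.6 and 74.3 CPM in NC, 51.8 and 51.9 in P1-a2 and 52.8 and 48.7 in P2-a8. It fell by 0.55 on the log2 scale in P1-a2 (SE 0.07, adjusted p 2.01e-09) and by 0.58 in P2-a8 (SE 0.07, adjusted p 1.55e-09), and no difference between P1-a2 and P2-a8 was called (0.03, SE 0.07, adjusted p 0.754). COPG2, which shares exon sequence with MEST on the other strand, was at 19.6 to 30.4 CPM in Panc10.05. In BxPC3 MEST was at 108 and 101 CPM in NC, 91.5 and 87.4 in P1-a2 and 104 and 101 in P2-a8, so P1-a2 lay slightly below the others.

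PEG10 was at 287 to 367 CPM in BxPC3 and 169 to 244 in ASPC1, and no comparison of ASPC1 groups called it. In Panc10.05 it had 11 to 40 counts. The levels were 0.648 and 0.551 CPM in NC, 0.359 and 0.239 in P1-a2 and 0.726 and 1.13 in P2-a8, with no overlap. PEG10 had 14 and 11 counts in P1-a2, too few to pass the filter on low counts without NC and P2-a8, where it is higher. With that limit, P1-a2 was lower than P2-a8 (-1.62, SE 0.40, adjusted p 0.000862) and than NC (-1.02, SE 0.43, adjusted p 0.0366). The second call was lost with DESeq2 (0.119), with no filter (0.0551), without NC replicate 1 (0.150) and without P1-a2 replicate 2 (0.224).

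**Figure D4:**
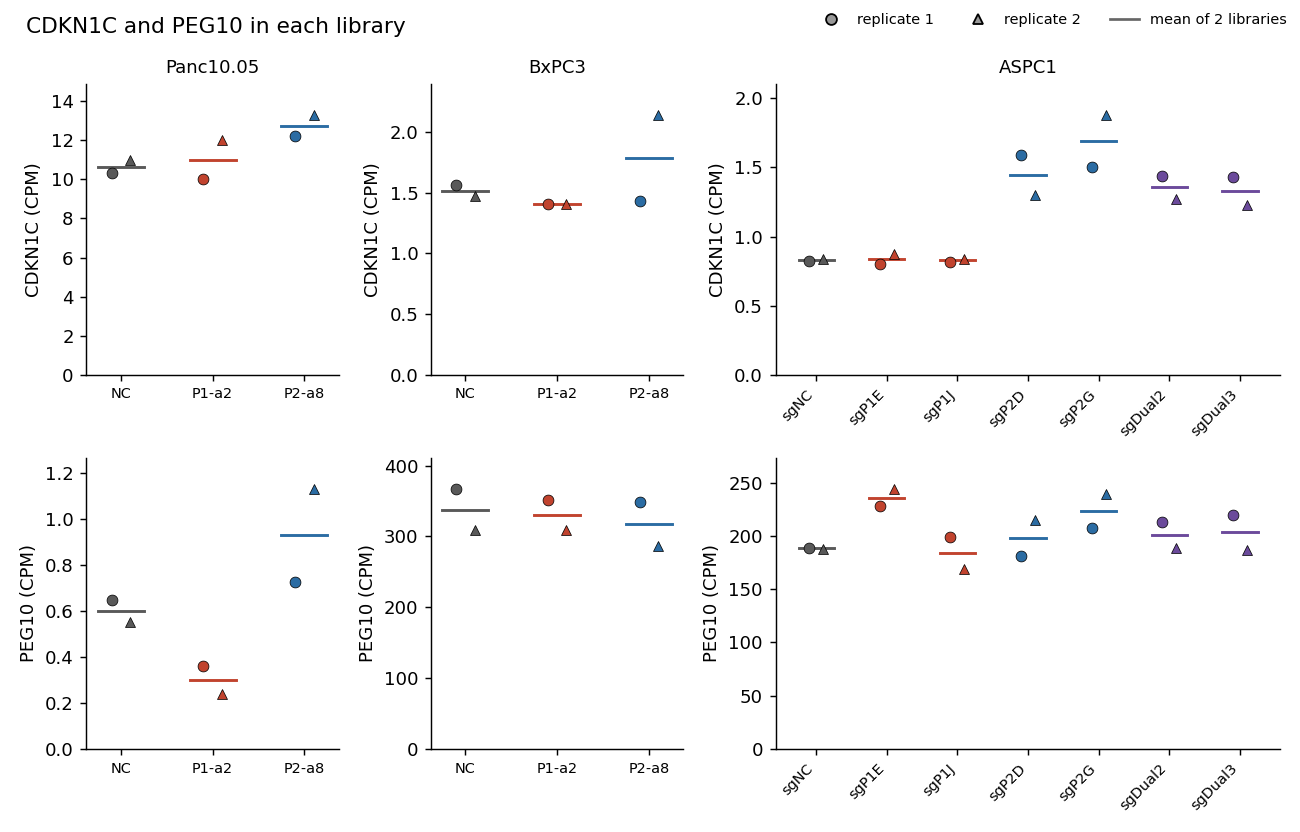
CDKN1C and PEG10 (CPM, axes from 0) in each library of the 3 lines, with circles for replicate 1, triangles for replicate 2 and a line at the mean of 2 libraries. The sgP2 and sgDual libraries of ASPC1 lie from 1.23 to 1.88 CPM of CDKN1C, above the sgP1 and sgNC libraries, which lie from 0.800 to 0.873.

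**Figure D5:**
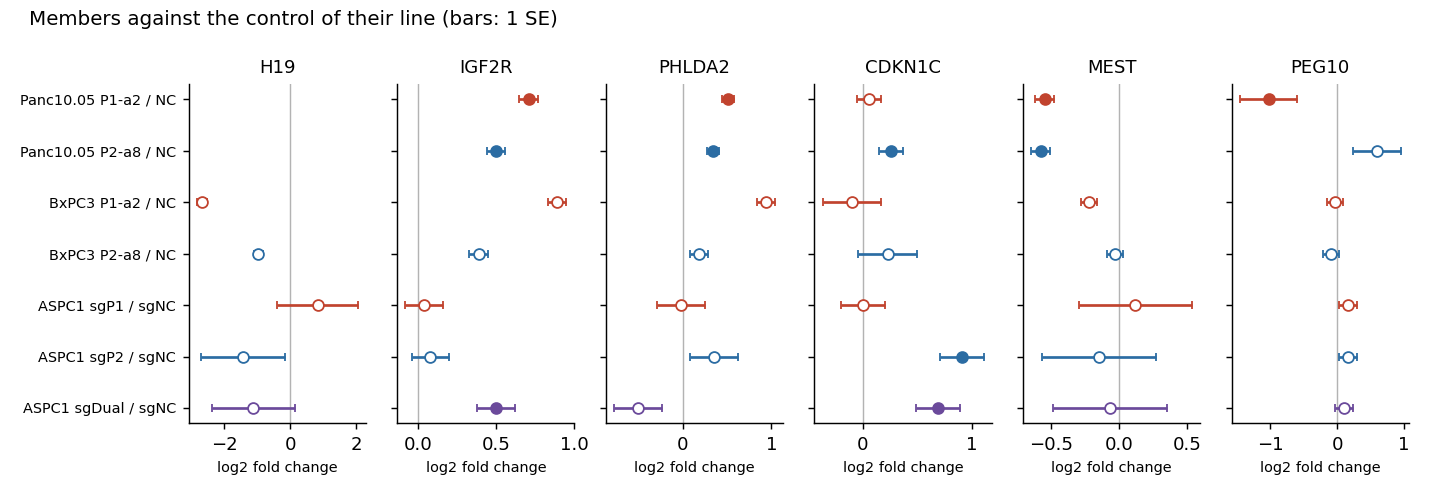
Log2 fold change of 6 members against the control of their line, with bars of 1 SE. Filled points passed an adjusted p of 0.05 and open points did not, or, in BxPC3, were not tested, and H19 has no point in Panc10.05, where it did not pass the filter. IGF2R lies above 0 in P1-a2 of Panc10.05 (0.71) and BxPC3 (0.89) and in sgDual of ASPC1 (0.50).

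The other genes of the insulin-like growth factor axis, a list of 23 that hold the receptors, the binding proteins and the IGF2 messenger binding proteins, were counted beside IGF2 and IGF2R. In Panc10.05, 9 of 12 tested were past the threshold in P1-a2 against NC (8 higher, 1 lower, median log2 0.25, beside 0.02 for all genes), and 8 of 12 in P2-a8 (6 higher, 2 lower, median 0.17, beside 0.00). These are shares of 75.0% and 66.7%, beside 62.0% and 46.2% of all genes. IGFBP6, a binding protein with a preference for IGF2, fell from 405 ± 26.6 CPM in NC to 11.9 ± 0.240 in P1-a2 (-5.09 on the log2 scale, SE 0.08, adjusted p 1.24e-39) and to 60.6 ± 0.856 in P2-a8 (-2.74, SE 0.06, adjusted p 8.58e-32, n = 2 each). IRS1, a docking protein of the insulin and IGF1 receptors, rose from 19 ± 1.95 CPM to 37.6 ± 2.67 and 41.2 ± 1.95. In P1-a2 against P2-a8, 5 of 12 passed (41.7%, beside 46.9% of all genes).

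In BxPC3, 9 of 13 genes of this list passed in P1-a2 against NC (3 higher, 6 lower), where 32.0% of all genes did, 4 of 13 in P2-a8 against NC, where 6.99% did, and 7 of 13 in P1-a2 against P2-a8, where 22.5% did. IGFBP6 was lower there too, at 613 ± 39.7 CPM in P1-a2 beside 996 ± 55.8 in NC (-0.70, SE 0.06, adjusted p 8.16e-06). IGFBP5 fell to 2.32 ± 0.536 CPM in P1-a2 from 10.7 ± 1.18 (-2.19, SE 0.19, adjusted p 8.95e-06), and INSR, the insulin receptor, rose to 10.0 ± 0.366 from 3.66 ± 0.0799 (1.45, SE 0.18, adjusted p 0.000122). STC1, an inhibitor of the protease that frees IGF from its binding proteins, fell in P2-a8 (-1.34, SE 0.06, adjusted p 2.62e-07).

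In ASPC1, 0 of 15 genes of this list passed in sgP1 against sgNC, 1 in sgP2 and 9 in sgDual (6 higher, 3 lower, median log2 0.26, beside 0.00 for all genes). These are shares of 0%, 6.7% and 60.0%, beside 0.265%, 3.42% and 35.6% of all genes. IGFBP3, the main IGF carrier of serum, was at 4536.6 ± 638 CPM in sgDual (n = 4) and 827 ± 210 in sgNC (n = 2), a rise of 2.46 (SE 0.39, adjusted p 0.000508). IGFBP2 fell to 21.5 ± 1.40 CPM from 55.6 ± 2.50 (-1.37, SE 0.13, adjusted p 4.61e-06). In sgP2, IGFBP1 fell (-0.57, SE 0.12, adjusted p 0.0187).

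Of 42 other imprinted genes, 21 were tested in Panc10.05, and 13 passed in P1-a2 against NC (6 higher, 7 lower, median -0.06) and 10 in P2-a8 (6 higher, 4 lower, median 0.08), shares of 61.9% and 47.6% that lie near those of all genes. CPA4, a carboxypeptidase gene close to MEST, fell from 63.3 ± 0.421 CPM to 16.4 ± 1.94 in P1-a2 (-1.95, SE 0.09, adjusted p 1.24e-21) and 29.7 ± 3.56 in P2-a8. ZNF597 was at 2.13 ± 0.366 CPM in P1-a2 (n = 2) and had 2 counts in each NC library, which is under the floor, so no fold is given. In BxPC3, 8 of 26 passed in P1-a2 against NC (30.8%, beside 32.0% of all genes), 1 in P2-a8 against NC (3.8%, beside 6.99%) and 3 between the isoforms (11.5%, beside 22.5%). PLAGL1, a zinc finger gene known to regulate other imprinted genes, fell in P1-a2 (-1.30, SE 0.19, adjusted p 0.000343) and in P2-a8 (-1.02, SE 0.19, adjusted p 0.00692). In ASPC1, 0 of 15 passed in sgP1, 1 in sgP2 (6.7%, beside 3.42% of all genes) and 2 in sgDual (13.3%, beside 35.6%) against sgNC. FAM50B was at 0.518 ± 0.176 CPM in sgP2 (n = 4) and 4.08 ± 0.399 in sgNC (n = 2; -2.98, SE 0.36, adjusted p 0.000726).

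Genes that set or keep imprints, a list of 16 with the methyltransferases and their partners, were counted in the same way. In Panc10.05, 9 of 11 tested passed in P1-a2 against NC (3 higher, 6 lower, 81.8%, beside 62.0% of all genes) and 7 in P2-a8 (4 higher, 3 lower, 63.6%, beside 46.2%). In P1-a2 against P2-a8, 1 was higher and 3 were lower (36.4%, beside 46.9% of all genes). UHRF1, which guides DNMT1 to newly copied DNA, fell from 132 ± 5.31 CPM to 74.6 ± 6.81 in P1-a2 (-0.82, SE 0.07, adjusted p 1.74e-14), and DNMT3A, a de novo methyltransferase, rose from 11.1 ± 1.51 to 23.0 ± 1.08 (1.05, SE 0.10, adjusted p 1.6e-12). In BxPC3, 7 of 11 were lower and 0 higher in P1-a2 against NC (63.6%, beside 32.0% of all genes, median -0.26, beside -0.01). ZNF445, a zinc finger protein that protects imprints, was at -0.52 there (SE 0.11, adjusted p 0.00286). In P2-a8 against NC, where H19 was also lower, 1 of 11 passed (9.1%, beside 6.99% of all genes). Between the isoforms 3 of 11 passed, all lower in P1-a2 (27.3%, beside 22.5%). In ASPC1, 0 of 13 passed in sgP1, 1 in sgP2 and 8 in sgDual against sgNC (2 higher, 6 lower, 61.5%, beside 35.6% of all genes). ZFP57, another protector of imprints, fell to 7.39 ± 0.382 CPM from 12.9 ± 1.57 in sgDual (-0.80, SE 0.14, adjusted p 0.000399), where DNMT3A rose (1.57, SE 0.32, adjusted p 0.00172) and UHRF1 fell (-0.78, SE 0.16, adjusted p 0.00212).

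Of 8 genes of the fetal programme and known H19 regulators, 4 were tested in Panc10.05, 6 in BxPC3 and 5 in ASPC1. In Panc10.05, 3 of 4 passed in P1-a2 and 2 in P2-a8 against NC (75.0% and 50%, beside 62.0% and 46.2% of all genes). In BxPC3, 2 of 6 passed in P1-a2 (33.3%, beside 32.0%) and 0 in P2-a8, and 3 between the isoforms. GPC3, a fetal cell surface proteoglycan, fell in P1-a2 to 4.67 ± 0.491 CPM from 11.1 ± 0.0132 in NC (-1.25, SE 0.14, adjusted p 4.88e-05). ZFHX3 fell there too (-0.52, SE 0.07, adjusted p 0.000235). In ASPC1, 0 of 5 passed in sgP1 and in sgP2, and 1 in sgDual against sgNC (20.0%, beside 35.6% of all genes). There HMGA2, a chromatin protein of fetal cells, fell (-0.98, SE 0.13, adjusted p 4.67e-05).

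Genes within 500 kb of H19 were counted to see whether its change stood with its neighbours. In BxPC3, 9 of 17 tested passed in P1-a2 against NC (1 higher, 8 lower, 52.9%, beside 32.0% of all genes, with a median of -0.48, beside -0.01). In P2-a8 against NC, where H19 was also lower, 1 passed (5.9%, beside 6.99% of all genes). Between the isoforms 6 passed (2 higher, 4 lower, 35.3%, beside 22.5% of all genes, median -0.37). TNNI2, a troponin gene, fell to 10.3 ± 0.421 CPM in P1-a2 from 26.5 ± 2.55 (-1.37, SE 0.11, adjusted p 5.96e-06), and TNNT3 fell (-2.0, SE 0.29, adjusted p 0.000302). In Panc10.05, 10 of 14 passed in P1-a2 (6 higher, 4 lower, median 0.20) and 7 in P2-a8 (5 higher, 2 lower, median 0.18), shares of 71.4% and 50% beside 62.0% and 46.2% of all genes. CD81, a tetraspanin gene, rose from 10.4 ± 0.854 CPM in NC to 93.2 ± 1.95 in P1-a2 (3.17, SE 0.08, adjusted p 1.15e-31) and 79.7 ± 0.857 in P2-a8 (2.94, SE 0.08, adjusted p 4.78e-30). TH, the tyrosine hydroxylase gene, fell from 3.77 ± 0.244 CPM to 0.140 ± 0.0168 in P1-a2. In ASPC1, 0 of 12 passed in sgP1 and sgP2 and 4 in sgDual against sgNC (33.3%, beside 35.6% of all genes), all higher, with DUSP8 at 1.74 (SE 0.32, adjusted p 0.000719). Between sgP1J and sgP1E, where H19 differed most, 3 of 12 neighbours were higher and 0 lower (25.0%, beside 14.5% of all genes), CD81 by 0.48 (SE 0.08, adjusted p 0.00101) and CTSD by 0.36 (SE 0.11, adjusted p 0.0376).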

How the data were processed

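The authors deposited raw counts per gene, whole numbers in 1 table for each cell line. Per the submitters' processing notes, cutadapt 1.16, STAR 2.7.9a, featureCounts 1.6.3 and DESeq2 1.36.0 were used with GRCh38, and the roles, the annotation and the strand setting are not given in the sources used here. Symbols matched 99.88% of identifiers in Panc10.05 and BxPC3 and 99.91% in ASPC1. Coordinates and exon lengths are from GENCODE v29.

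Each table was fitted with edgeR 4.0.16 (R 4.3.3): filterByExpr, TMM scaling, a robust quasi-likelihood fit over all its libraries and an F test, with p-values adjusted by the Benjamini-Hochberg method over all genes tested and a threshold of 0.05. The SE is the log2 fold change divided by the root of F. Single guides were tested in a fit with 1 coefficient per guide; comparing each guide with sgNC was chosen after seeing the data. On simulated data with 200 genes changed 2-fold, 195 were recovered in Panc10.05 (P1-a2 against NC), 185 in BxPC3 (P1-a2 against NC) and 171 in ASPC1 (sgP1 against sgNC). The changed genes were drawn only from those with higher counts. These rates therefore do not cover genes with few counts, such as CDKN1C in ASPC1 and PEG10 in Panc10.05. Alternatives were DESeq2 1.42.0, other scaling, no filter, only the groups compared, a replicate block and leaving out each library.

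The 9 members and the gene lists were chosen with earlier results of these data known. From each list, and from genes within 500 kb of H19, up to 2 rises and 2 falls past the threshold with a mean of at least 1 CPM could be named. Genes most like H19 and IGF2 are the 3 with the highest correlation of log2 CPM (prior count 2) among genes at a mean of at least 5 CPM. Figures were drawn with matplotlib 3.10.9.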

Additional observations from a re-analysis of the deposited data

Results flagged for a closer look

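In ASPC1, H19 lay on opposite sides of sgNC in the guides against P1, and MEST did so in each of the 3 guide pairs, with no overlap between libraries. H19 was at a log2 fold change of -2.88 in sgP1E and 1.79 in sgP1J, and the guides differed by 4.67 (SE 0.49, edgeR adjusted p 8.01e-05). MEST was at -0.73 in sgP1E and 0.66 in sgP1J, a difference of 1.39 (SE 0.10, adjusted p 1.25e-06), and at -0.61 in sgP2D and 0.20 in sgP2G, a difference of 0.82 (SE 0.10, adjusted p 0.000416), although sgP2G itself did not pass against sgNC (adjusted p 0.242). For the guides against both isoforms MEST was at -0.26 in sgDual2 and 0.10 in sgDual3. The difference between them did not pass (0.37, SE 0.09, adjusted p 0.129), nor did sgDual3 against sgNC (adjusted p 0.416). HNF4A did not differ past the threshold between the guides of a pair (adjusted p 0.627, 0.970 and 0.972), but its libraries did not overlap between sgP1E (144 and 146 CPM) and sgP1J (118 and 109), or between sgP2D (93.9 and 91.4) and sgP2G (84.0 and 76.7). In 18 sets of 4 libraries, 1 for each member and each ASPC1 target where it was tested, no library stood apart from the other 3 past Dixon's 95% critical value, on the CPM scale. Each set holds a pair of guides, and a difference between guides can mask a library that stands apart, so this check could miss one.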

How the results depend on the processing

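In Panc10.05 the number of members past the threshold in P1-a2 against NC was 5, IGF2 included, and ran from 3 to 5 with 1 library left out (3 without P1-a2 replicate 2). In ASPC1 the count for sgP1 against sgNC was 0, and 2 with sgP1E alone and 2 with sgP1J alone. For sgP2 against sgNC it was 1, and 0 with no filter on low counts, 0 with only both groups in the fit, 2 with 1 coefficient per guide, 2 with sgP2D alone, and 0 to 1 with 1 library left out (0 without sgNC replicate 1). For sgDual against sgNC it was 2, and 1 with no filter, 4 with sgDual2 alone, and 0 to 2 with 1 library left out (0 without sgNC replicate 1). H19 in sgP1 against sgNC changed sign with 1 coefficient per guide (-0.55) and with sgP1E alone (-2.88). MEST in sgP1 did so with 1 coefficient per guide (-0.03), with sgP1E alone (-0.73) and with 1 library left out (-0.12 to 0.34), and in sgP2 with sgP2G alone (0.20). In sgDual, MEST did so with sgDual3 alone (0.10) and with 1 library left out (-0.13 to 0.02). In BxPC3 the listed genes past the threshold in P2-a8 against NC were 7, and 14 with no filter and 18 with the replicate block. The members that differed between guides of 1 target were 4, and 7 with the replicate block. Apart from single guides, the shares of all genes called under these other settings are not given here. The shifts in counts therefore cannot be read as particular to the members or the listed genes. With the block, PHLDA2 in sgDual passed against sgNC (-0.49, adjusted p 0.00878) and against sgP1 (-0.47, adjusted p 0.00327). The cause of these shifts was not tested, apart from the smaller number of libraries where 1 was left out. Replicate numbers do not pair the samples by the labels, and deviations of same-numbered libraries correlated at -0.01 to 0.01 in Panc10.05, 0.07 to 0.13 in BxPC3 and 0.08 to 0.34 in ASPC1. Of 222 values for group comparisons of Panc10.05 and ASPC1 under other settings, 196 kept their direction and side of the threshold, as did 151 of 172 with a library left out, and 65 of 68 and 44 of 68 for single guides. Depth limits IGF2 in every line, H19 in Panc10.05 and CDKN1C in ASPC1, where the highest library had 15, 6 and 59 counts. It also limits H19 in ASPC1, where the libraries had 6 and 20 counts in sgP1E, 10 and 8 in sgP2D and 20 and 15 in sgDual2.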

Other observations

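Markers of other cell types were low in these lines with a few exceptions in ASPC1. LUM, an extracellular matrix gene of fibroblasts, was at 130 to 299 CPM in ASPC1, while 7 of 8 fibroblast markers had a mean under 1 CPM and PDGFRA and THY1 were at the floor. The summed fibroblast list was at 280 to 301 CPM in sgDual and 165 to 179 in sgNC. LYZ, the lysozyme gene of the immune list, was at 10.4 to 76.4 CPM in ASPC1, where CD3E was at the floor. In Panc10.05 PTPRC and CD3E were at the floor, and CD68 was at 6.25 to 9.35 CPM.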
